A study of Rattus norvegicus with 9 samples.

Results

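The 26S proteasome genes were followed in 9 rat liver RNA-seq libraries. Gene symbols that begin with Psma, Psmb, Psmc, Psmd, Psme, Psmf or Psmg and a digit, and that were present in both deposited tables, were taken where at least 3 of the 9 libraries held 10 or more reads. Of 15565 genes in both tables, 48 symbols had such a name and 47 reached the minimum. The gene left out was Psma8, the testis form of an alpha subunit, with 3 reads in all 9 libraries together. Of the 47, 45 encode subunits, assembly chaperones or regulators of the proteasome, and all 45 were among the 12041 genes that passed the filter on low counts and were tested. The values of the other 2 are given apart. Psmc3ip is a cofactor of meiotic recombination, and Psme1-ps1 carries a pseudogene name in RefSeq. Psme1 itself, which encodes the alpha subunit of the PA28 activator, was not analysed here, and its reads may stand under the name Psme1-ps1.

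Livers came from male Sprague-Dawley (SD) rats in 3 groups, each with 3 libraries. The SCL-treated group received Smilax china L., a climbing plant whose rhizome is used in herbal medicine. The design text calls its last group SCS, which was taken here to be the SCL-treated one. The high-fat diet group, the model of non-alcoholic fatty liver, had received a high-fat diet over 8 weeks, and the normal diet group was the control. The labels describe the SCL-treated tissue as fatty liver but do not give the diet of those rats, or the dose and duration of the treatment. The series asks how liver transcription differs in fatty liver and under SCL. Nothing in the labels says that the libraries of a group come from separate rats, so p-values measure only the spread between libraries, which may be technical.

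The proteasome degrades proteins that carry a ubiquitin chain. Its barrel-shaped core has alpha rings that gate the entry and beta rings that hold the proteolytic sites, and a regulatory cap with a base of ATPases that unfold the substrate and a lid that removes the ubiquitin. Under interferon gamma, immunosubunits take the place of the constitutive catalytic subunits and alter the peptides produced for antigen presentation, and the transcription factors encoded by Nfe2l1 and Nfe2l2 are known to raise subunit transcription under proteasome inhibition and oxidative stress.

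The libraries held 12413774 to 15521648 reads. Reads of 13 mitochondrial transcripts made up 3.85% to 49.0% of a library, with 49.0% in SCL-treated replicate 2 and 44.1% in high-fat diet replicate 3. Alb, the main plasma protein made by hepatocytes, had between 45524 and 152855 CPM (counts scaled to the size of the library), and the 2 libraries rich in mitochondrial reads held the 2 lowest values, at 47034 and 45524 CPM. The least read member, Psmd10, had 7 to 45 reads in a library, and the most read, Psmb1 and Psmb4, had 1523 to 3011 and 1661 to 2893.

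Per unit of transcript length, the core rings had the highest median levels of the complex in these livers, and the 3 activator genes among the 45 the lowest. Psme1-ps1, which may hold the reads of a further activator and is not among them, had 52.6 FPKM. Levels between genes are compared here as deposited FPKM (reads scaled to transcript length and library total), averaged over the 9 libraries. The beta ring had a median of 95.9 FPKM and the alpha ring one of 61.0 FPKM. The highest member of all was Psmb4, a structural beta subunit, with 191.6 FPKM and a range of 142 to 269. Among the alpha subunits Psma7 was highest at 109.5 FPKM and Psma3 lowest at 12.7 FPKM. Subunits that stand in equal number in the assembled ring thus differed in FPKM by 8.602-fold in the alpha ring and 11.6-fold in the beta ring, where Psmb6 was lowest at 16.6 FPKM. The alpha ring value depends on the transcript lengths behind the FPKM. These were 3559 bases for Psma3 and 3909 for Psma4, against 922 for Psma7 and a median of 1065 in the ring. In CPM, which is not scaled to length, Psma3 had 29.3 to 65.4 and Psma7 62.6 to 138 over the libraries.

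The base ATPases had a median of 47.0 FPKM, with Psmc3 highest at 88.2 FPKM and Psmc6 lowest at 26.8 FPKM. The non-ATPase members of the base had 52.3 FPKM for the ubiquitin receptor gene Psmd4, 34.1 FPKM for Psmd2 and 24.6 FPKM for Psmd1, the last 2 encoding the large scaffold proteins. The lid had a median of 27.4 FPKM and was led by Psmd8 at 61.3 FPKM, and its lowest member was Psmd14, the deubiquitinase, at 15.8 FPKM. The immunosubunits had 29.0 FPKM for Psmb10, 23.3 FPKM for Psmb9 and 12.9 FPKM for Psmb8. The assembly chaperones of the base had a median of 11.3 FPKM, with Psmd9 highest at 17.5 FPKM, and those of the core one of 24.6 FPKM, with Psmg1 highest at 41.5 FPKM. Among the activators Psme4, which encodes PA200, was highest at 13.9 FPKM, and the inhibitor gene Psmf1, which encodes PI31, stood at 41.6 FPKM. The ranges over the libraries overlap between most neighbours in this order, and the FPKM of a library with many mitochondrial reads is lowered for every other gene. For 18 members RefSeq lists at least 1 near copy or pseudogene named after them, up to 10 for Psmb3 and 5 for Psma6, so that the counts of these members are uncertain.

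**Figure D1:**
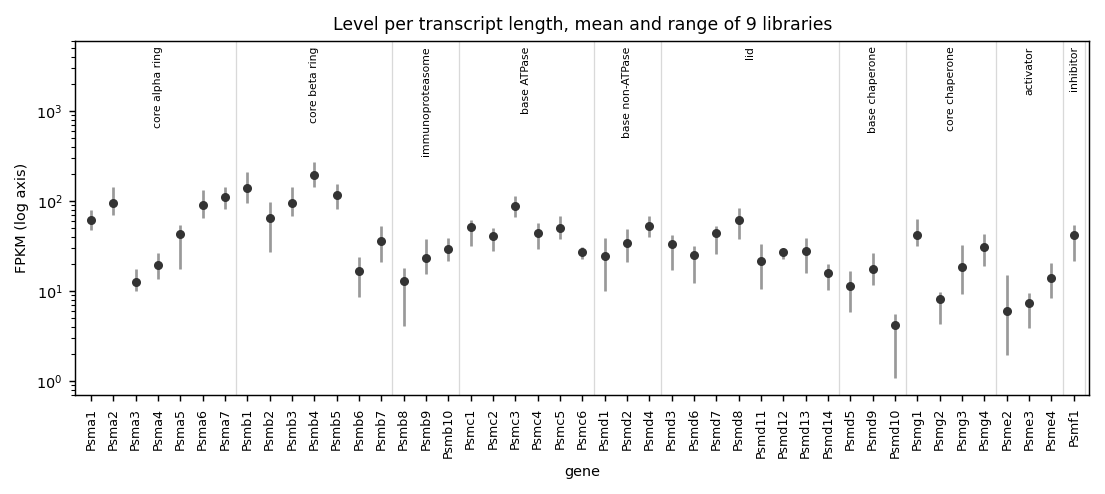
Deposited FPKM of the 45 proteasome genes on a log axis, by class, where each point is the mean of 9 libraries and each line runs from the lowest library to the highest. Psmb4 stands highest at 191.6 FPKM and Psmd10 lowest at 4.18 FPKM.

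No proteasome gene passed the test in any of the 3 comparisons. Between high-fat diet and normal diet livers edgeR called 0 of 45 at an adjusted p under 0.05, against 0.0083% of all genes tested. At an unadjusted p under 0.05 the count was 0 of 45, against 4.32% of all genes. DESeq2 called 0 of 45 and 0.415% of all genes, and limma-voom with quality weights 0 of 45 and 0.216% of all genes. Between SCL-treated and high-fat diet livers edgeR called 0 of 45 and 0.0% of all genes, and at an unadjusted p under 0.05 the count was 0 of 45 against 1.95%. There DESeq2 called 0 of 45 and 0.0083% of all genes, and limma-voom 0 of 45 and 0.0% of all genes. Between SCL-treated and normal diet livers edgeR called 0 of 45 and 0.0083% of all genes, and the unadjusted count was 1 of 45, Psmg1, against 6.88%. DESeq2 there called 0 of 45 and 0.332% of all genes, and limma-voom 0 of 45 and 1.26% of all genes. In the authors' deposited table of high-fat diet and normal diet livers 0 of the 45 had an adjusted p under 0.05, the lowest being 0.71 for Psme2, and in the authors' deposited table for SCL-treated over high-fat diet livers the lowest was 1.00.

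In the edgeR fit the fold changes were small and mostly above 0. The median log2 fold change of the 45 was 0.095 for high-fat over normal diet, with 27 of the 45 above 0, against a median of 0.034 over all genes, of which 52.8% were above 0. For SCL-treated over high-fat diet it was 0.17, with 34 of 45 above 0, against -0.031 and 46.7% over all genes. For SCL-treated over normal diet it was 0.26, with 30 of 45 above 0, against 0.026 and 51.8% over all genes. These comparisons share libraries and are not independent of each other. The median for high-fat over normal diet was -0.079 without high-fat diet replicate 2. With libraries scaled by their totals alone it was -0.0095, against -0.030 over all genes. Totals alone put the median at 0.016 for SCL-treated over high-fat diet and 0.047 for SCL-treated over normal diet, against -0.19 and -0.21 over all genes. Without SCL-treated replicate 3 the medians of the 45 in these comparisons were 0.022 and 0.037. With limma-voom the median for high-fat over normal diet was 0.31. Standard errors of single members ran between 0.22 and 0.67 on the log2 scale. The 95% interval lay within a 2-fold change in both directions for 26 of the 45 in high-fat over normal diet, 29 in SCL-treated over high-fat diet and 23 in SCL-treated over normal diet, and was wider for the others.

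The limma-voom fit weights libraries by their noise. In the comparisons with normal diet livers it gave more members a low unadjusted p than edgeR did, and likewise more of all genes. The count under 0.05 was 12 of 45 for high-fat over normal diet, against 30.0% of all genes, 0 of 45 for SCL-treated over high-fat diet, against 7.69%, and 17 of 45 for SCL-treated over normal diet, against 28.1%. Its lowest adjusted p among the 45 was 0.057, for Psmg1 in SCL-treated over normal diet livers. The lowest weights went to high-fat diet replicate 1, at 0.278, and SCL-treated replicate 2, at 0.304, and the highest, 3.81, to normal diet replicate 2.

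Groups that did not overlap were few in the comparisons with high-fat diet livers. SCL-treated against normal diet livers had more, all on the higher side. In high-fat against normal diet livers 0 of 45 lay wholly higher, against 5.33% of all genes, and 2 wholly lower, the lid genes Psmd3 and Psmd6, against 5.27%. In SCL-treated against high-fat diet livers 1 lay wholly higher, Psmc6, against 2.36% of all genes, and 0 wholly lower, against 2.43%. In SCL-treated against normal diet livers 7 of 45 lay wholly higher, against 7.47% of all genes, and 0 wholly lower, against 7.81%. The 7 were Psma1, Psmb6, Psmb7, Psmb9, Psmb10, Psmc6 and Psme2.

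**Figure D2:**
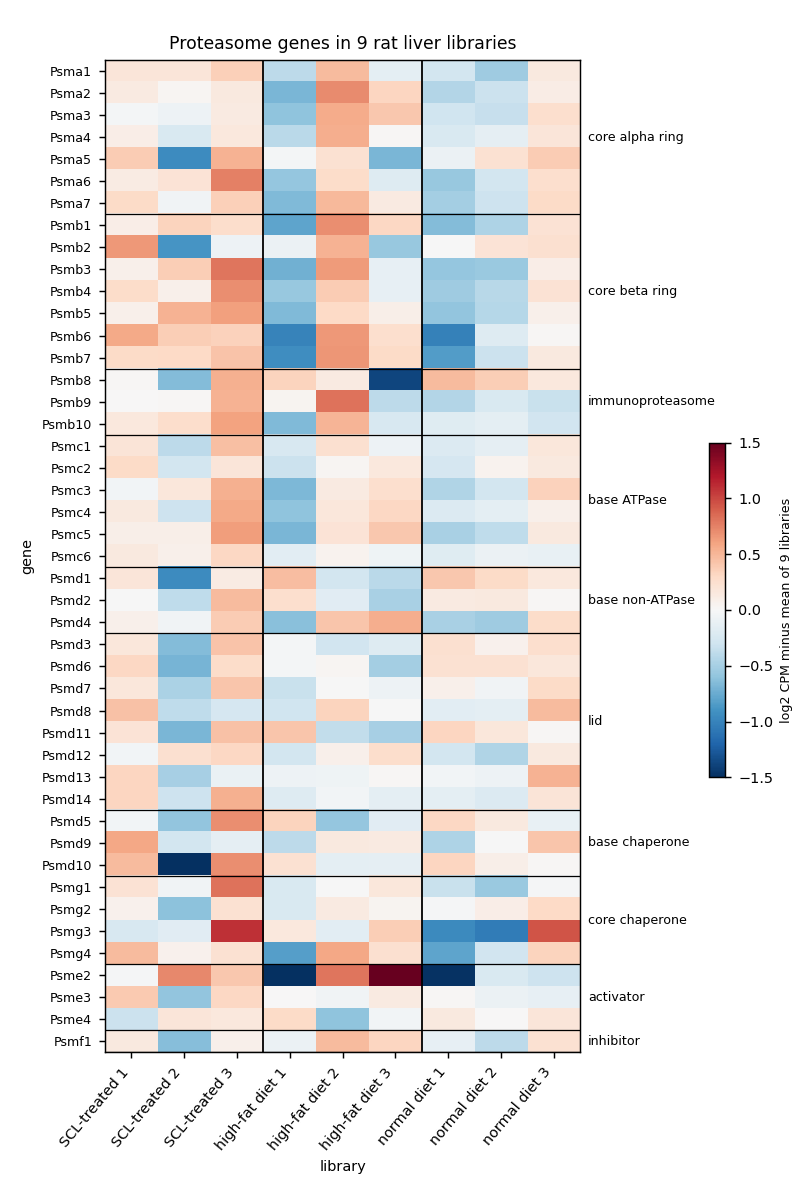
Log2 CPM of each proteasome gene minus its mean over the 9 libraries (colour scale cut at 1.5 in both directions), with genes in rows by class and libraries in columns. Core genes are low in high-fat diet replicate 1 and normal diet replicates 1 and 2, and lid genes are low in SCL-treated replicate 2.

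The core genes were low in the same few libraries, which did not follow the groups. Summed over the 14 subunits of both rings, the core had 1269, 1196 and 1512 CPM in SCL-treated livers, 740, 1570 and 1135 CPM in high-fat diet livers and 798, 888 and 1263 CPM in normal diet livers. The groups overlap, and high-fat diet livers hold both the lowest and the highest library. High-fat diet replicate 1 was the lowest of the 9 libraries for 10 of the 14 core genes, and high-fat diet replicate 2 was the highest for 8 of them. The title of high-fat diet replicate 1 carries another group code than the titles of the rest of its group. What that code stands for was not known here. The 3 lowest values of a core gene included high-fat diet replicate 1 for 13 genes, normal diet replicate 1 for 13 and normal diet replicate 2 for 11. These 3 libraries also had the 3 lowest shares of mitochondrial reads, at 4.90%, 4.63% and 3.85%. Among the other libraries the core sum did not follow the share. SCL-treated replicate 3 had 7.04% and a core sum of 1512 CPM, and high-fat diet replicate 2 had 18.8% and 1570 CPM. High-fat diet replicate 3 and SCL-treated replicate 2 had 44.1% and 49.0%, with core sums of 1135 and 1196 CPM. Whether the core sum goes with the share was not tested. The core medians were computed again in a fit with the log2 of the mitochondrial share as a covariate. For high-fat over normal diet the covariate put the beta ring at 0.057, against 0.35 without it, and the alpha ring at 0.050, against 0.20. For SCL-treated over normal diet it put the beta ring at 0.47, against 0.62, and the alpha ring at 0.19, against 0.30. For SCL-treated over high-fat diet the beta ring stood at 0.41, against 0.31, and the alpha ring at 0.14, against 0.15. The median of the 45 with the covariate was 0.052 for high-fat over normal diet, 0.16 for SCL-treated over high-fat diet and 0.20 for SCL-treated over normal diet.

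In the alpha ring, which forms the gate of the barrel, the median log2 fold change was 0.20 for high-fat over normal diet, 0.15 for SCL-treated over high-fat diet and 0.30 for SCL-treated over normal diet, with 6, 4 and 6 of 7 genes above 0. Single libraries decided the sign of the alpha ring in the comparisons with the high-fat diet group. High-fat over normal diet was -0.086 without high-fat diet replicate 2 and 0.42 without normal diet replicate 3, and SCL-treated over high-fat diet was -0.11 without high-fat diet replicate 1 and 0.42 when replicate 2 of that diet was left out. SCL-treated over normal diet ran between 0.18 and 0.48 with 1 library left out. Psma6 had 102, 108 and 158 CPM in SCL-treated livers, 62.6, 113 and 81.8 CPM in high-fat diet livers and 63.2, 77.4 and 111 CPM in normal diet livers. The third SCL-treated library is the highest, and the groups overlap in all 3 comparisons. Its log2 fold change was 0.51 for SCL-treated over high-fat diet (SE 0.33, edgeR adjusted p = 1.00) and 0.55 for SCL-treated over normal diet (SE 0.33, edgeR adjusted p = 0.67). Psma2 had 88.6, 82.2 and 88.9 CPM in SCL-treated livers, 49.9, 132 and 100.5 CPM in high-fat diet livers and 59.6, 64.4 and 87.2 CPM in normal diet livers. High-fat diet livers hold both extremes, while the SCL-treated libraries lie close together. Psma2 had the smallest p of the ring for high-fat over normal diet, with a log2 fold change of 0.42 (SE 0.34, edgeR adjusted p = 0.92).

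Psma1 had 80.2, 80.0 and 90.6 CPM in SCL-treated livers, against 58.2, 48.9 and 78.2 CPM in normal diet livers, and these groups do not overlap. The log2 fold change between them was 0.44 (SE 0.30, edgeR adjusted p = 0.67). Psma7, the most abundant alpha subunit, had 121, 95.1 and 126 CPM in SCL-treated livers, 62.6, 138 and 108 CPM in high-fat diet livers and 69.3, 79.8 and 121 CPM in normal diet livers, with all groups overlapping. Psma5 did not share the library order of most of the ring. It had 53.1, 21.3 and 58.6 CPM in SCL-treated livers, 40.1, 48.1 and 25.5 CPM in high-fat diet livers and 38.5, 48.0 and 53.2 CPM in normal diet livers, and its 2 lowest values lie in the 2 libraries over 40% mitochondrial.

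In the beta ring the median log2 fold change was 0.35 for high-fat over normal diet, 0.31 for SCL-treated over high-fat diet and 0.62 for SCL-treated over normal diet, with 6, 7 and 6 of 7 genes above 0. High-fat over normal diet was 0.035 without high-fat diet replicate 2 and 0.61 when replicate 1 of that diet was left out, and SCL-treated over high-fat diet was -0.034 without high-fat diet replicate 1 and 0.66 when replicate 2 of that diet was left out. SCL-treated over normal diet ran between 0.44 and 0.90 with 1 library left out. Psmb4, the most abundant subunit, had 191, 165 and 254 CPM in SCL-treated livers, 106, 204 and 144 CPM in high-fat diet livers and 109, 118 and 182 CPM in normal diet livers. The groups overlap, and the log2 fold change was 0.58 for SCL-treated over normal diet (SE 0.34, edgeR adjusted p = 0.67). Psmb1, a structural subunit, had 156, 183 and 175 CPM in SCL-treated livers, 84.0, 236 and 180 CPM in high-fat diet livers and 92.8, 106 and 169 CPM in normal diet livers. Its log2 fold change for high-fat over normal diet was 0.45 (SE 0.39, edgeR adjusted p = 0.92), and the high-fat diet group spans the whole range of the other libraries. Psmb2 was the exception in the ring, with 83.3, 28.6 and 50.1 CPM in SCL-treated livers, 49.9, 75.7 and 35.7 CPM in high-fat diet livers and 52.8, 61.2 and 62.4 CPM in normal diet livers. Its 2 lowest values are again those of the 2 libraries over 40% mitochondrial.

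The base ATPases, which unfold substrates, had a median log2 fold change of 0.057 for high-fat over normal diet, 0.21 for SCL-treated over high-fat diet and 0.29 for SCL-treated over normal diet, with 5, 6 and 6 of 6 above 0. With 1 library left out these ran between -0.037 and 0.20, 0.017 and 0.33, and 0.083 and 0.37, the lowest being without high-fat diet replicate 2, high-fat diet replicate 1 and SCL-treated replicate 3. Psmc6 was the most even member, with 70.5, 67.1 and 78.8 CPM in SCL-treated livers, 56.8, 65.8 and 60.7 CPM in high-fat diet livers and 56.1, 59.6 and 58.8 CPM in normal diet livers. All 3 SCL-treated libraries lie above all 6 of the others. The log2 fold change was 0.24 for SCL-treated over high-fat diet (SE 0.22, edgeR adjusted p = 1.00) and 0.31 for SCL-treated over normal diet (SE 0.22, edgeR adjusted p = 0.67). Psmc5 had 67.5, 67.4 and 97.6 CPM in SCL-treated livers, 39.3, 73.2 and 83.7 CPM in high-fat diet livers and 45.02, 48.6 and 69.9 CPM in normal diet livers. Normal diet replicate 3 lies among the SCL-treated values, and the log2 fold change was 0.51 (SE 0.33, edgeR adjusted p = 0.67). Psmc3, the most abundant ATPase, had 137, 160 and 205 CPM in SCL-treated livers, 88.3, 156 and 169 CPM in high-fat diet livers and 104, 116 and 180 CPM in normal diet livers, with the groups overlapping.

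Of the non-ATPase genes of the base, Psmd4 and the scaffold genes took opposite signs for high-fat over normal diet and SCL-treated over normal diet, while for SCL-treated over high-fat diet Psmd4 and Psmd1 were below 0 and Psmd2 above it. Psmd4 had 75.7, 69.5 and 93.5 CPM in SCL-treated livers, 46.7, 96.0 and 105 CPM in high-fat diet livers and 51.1, 49.6 and 87.3 CPM in normal diet livers. The log2 fold change was 0.40 for high-fat over normal diet (SE 0.36, edgeR adjusted p = 0.92), and high-fat diet replicate 1 lies below all other libraries. Psmd1 had 80.1, 36.7 and 76.8 CPM in SCL-treated livers, 96.7, 58.2 and 53.4 CPM in high-fat diet livers and 93.5, 85.7 and 78.5 CPM in normal diet livers. SCL-treated replicate 2 is the lowest, high-fat diet replicate 1 is the highest, and the log2 fold change for SCL-treated over normal diet was -0.41 (SE 0.35, edgeR adjusted p = 0.70). Psmd2 had 96.6, 74.6 and 134 CPM in SCL-treated livers, 116, 86.1 and 69.1 CPM in high-fat diet livers and 107, 108 and 98.4 CPM in normal diet livers, and its log2 fold change for SCL-treated over high-fat diet was 0.17 (SE 0.30, edgeR adjusted p = 1.00).

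The lid was lowest in another library than the core. For its 8 genes the log2 fold changes had a median of -0.22 for high-fat over normal diet, with 1 above 0, of 0.17 for SCL-treated over high-fat diet, with 6 above 0, and of -0.11 for SCL-treated over normal diet, with 2 above 0. The last turned to 0.13 without SCL-treated replicate 2, to 0.12 without both libraries over 40% mitochondrial, to 0.15 with limma-voom and to 0.058 with the mitochondrial share as a covariate. SCL-treated over high-fat diet was 0.029 without SCL-treated replicate 3 and 0.42 without SCL-treated replicate 2, and high-fat over normal diet ran between -0.29 and -0.069 with 1 library left out, -0.069 being without normal diet replicate 3. Summed over the lid, the libraries had 529, 336 and 530 CPM in SCL-treated livers, 423, 443 and 413 CPM in high-fat diet livers and 463, 433 and 542 CPM in normal diet livers. SCL-treated replicate 2 is the lowest and was the lowest of the 9 libraries for 7 of the 8 lid genes. High-fat diet replicate 1, the lowest for the core, was also among the 3 lowest for 6 lid genes. Normal diet replicates 1 and 2, likewise low for the core, were so for 1 and 2 lid genes. Psmd6 had 40.01, 19.9 and 39.0 CPM in SCL-treated livers, 31.6, 32.8 and 22.7 CPM in high-fat diet livers and 37.8, 38.0 and 36.4 CPM in normal diet livers. High-fat diet values all lie below normal diet values, with a log2 fold change of -0.36 (SE 0.30, edgeR adjusted p = 0.92).

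Psmd3 likewise had 68.4, 57.1 and 60.9 CPM in high-fat diet livers, against 82.0, 72.9 and 83.1 CPM in normal diet livers, and the log2 fold change was -0.35 (SE 0.29, edgeR adjusted p = 0.92). These groups do not overlap, but SCL-treated livers, with 78.5, 44.2 and 94.1 CPM, span both. Psmd14, which cuts the ubiquitin chain from the substrate, had 30.6, 19.8 and 35.4 CPM in SCL-treated livers, 21.5, 23.8 and 22.2 CPM in high-fat diet livers and 22.2, 21.3 and 28.1 CPM in normal diet livers. SCL-treated livers hold its highest and its lowest values, and the log2 fold change for SCL-treated over high-fat diet was 0.35 (SE 0.27, edgeR adjusted p = 1.00). Psmd12 had 51.2, 62.3 and 65.4 CPM in SCL-treated livers, 43.7, 55.7 and 63.1 CPM in high-fat diet livers and 43.5, 38.7 and 58.1 CPM in normal diet livers. It was the lid gene that was not lowest in SCL-treated replicate 2, and its log2 fold change for SCL-treated over normal diet was 0.35 (SE 0.26, edgeR adjusted p = 0.68). Psmd8, the most abundant lid gene, had 122, 69.5 and 75.7 CPM in SCL-treated livers, 73.7, 114 and 90.2 CPM in high-fat diet livers and 81.3, 81.8 and 125 CPM in normal diet livers, with all groups overlapping.

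**Figure D3:**
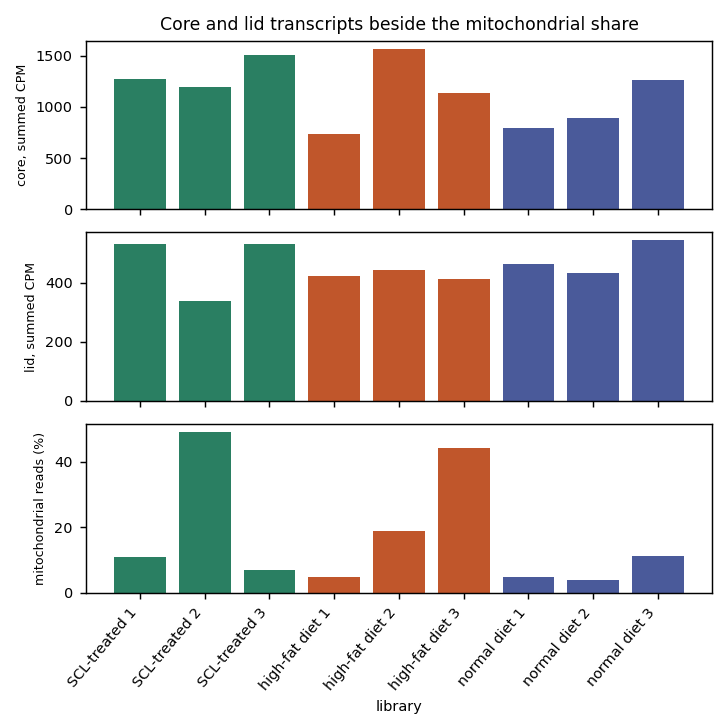
Bars give, for each library, the summed CPM of 14 core genes, the summed CPM of 8 lid genes and the percent of reads from mitochondrial transcripts. The lid sum of SCL-treated replicate 2, 336 CPM, is the lowest, and the 3 lowest core sums are those of high-fat diet replicate 1 and normal diet replicates 1 and 2.

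Set against each other, the summed CPM of core over lid was 2.40, 3.56 and 2.85 in SCL-treated livers, 1.75, 3.54 and 2.75 in high-fat diet livers and 1.72, 2.05 and 2.33 in normal diet livers. SCL-treated libraries all lie above normal diet libraries, and the high-fat diet group spans both. This ratio was formed after the values were seen and was not tested. Core transcripts are shorter than lid transcripts in these tables, with median lengths of 966 and 1576 bases against 2400 over all genes tested. The libraries also differed in how levels went with transcript length. Over the 45 genes Spearman's rho between length and deviation from the gene's mean was 0.45 in high-fat diet replicate 1, 0.53 in normal diet replicate 1 and 0.40 in normal diet replicate 2, against -0.43 in high-fat diet replicate 2. In SCL-treated replicates 1, 2 and 3 it was -0.29, -0.26 and -0.28. High-fat diet replicate 3 had -0.14 and normal diet replicate 3 had -0.10. Over all 12041 genes it was -0.40, 0.11 and -0.32 in SCL-treated replicates 1, 2 and 3. In the same order it was 0.29, -0.26 and 0.0022 in the high-fat diet replicates, and 0.27, 0.17 and -0.21 in the normal diet replicates. Genes are not independent replicates, and these values describe the libraries. With each library's trend with length removed, an alternative added after the data were seen, the median log2 fold change of the 45 was 0.022 for high-fat over normal diet, 0.11 for SCL-treated over high-fat diet and 0.15 for SCL-treated over normal diet. In that fit the beta ring, alpha ring and lid stood at 0.52, 0.21 and -0.15 for SCL-treated over normal diet. Without the removal they stood at 0.62, 0.30 and -0.11. For high-fat over normal diet they stood at 0.16, 0.15 and -0.24, against 0.35, 0.20 and -0.22. For SCL-treated over high-fat diet they stood at 0.30, 0.057 and 0.12, against 0.31, 0.15 and 0.17.

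Assembly chaperones bring the subunits together and leave the finished particle. The core chaperone Psmg1 had the lowest p of all 45 genes for SCL-treated over normal diet. It had 47.2, 39.4 and 71.7 CPM in SCL-treated livers, 34.8, 40.7 and 45.7 CPM in high-fat diet livers and 32.2, 27.8 and 40.2 CPM in normal diet livers. Normal diet replicate 3 lies just above SCL-treated replicate 2, so that these groups overlap. On the log2 scale the change was 0.66 (SE 0.29, edgeR adjusted p = 0.66), and without SCL-treated replicate 3 it was 0.36. For high-fat over normal diet it was 0.27 (SE 0.29, edgeR adjusted p = 0.92), and for SCL-treated over high-fat diet 0.39 (SE 0.29, edgeR adjusted p = 1.00). The 4 core chaperones had medians of 0.23, 0.20 and 0.43 for high-fat over normal diet, SCL-treated over high-fat diet and SCL-treated over normal diet. The first was -0.043 without normal diet replicate 1 and 0.52 without normal diet replicate 3, and the second -0.062 without SCL-treated replicate 3 and 0.35 without SCL-treated replicate 2. SCL-treated over normal diet was 0.095 without SCL-treated replicate 3 and 0.80 without normal diet replicate 3.

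The 3 base chaperones had medians of -0.15, 0.17 and 0.020 in the same comparisons. With the mitochondrial share as a covariate high-fat over normal diet was 0.17, and with 1 library left out it ran between -0.30 and -0.093. SCL-treated over high-fat diet was -0.19 without SCL-treated replicate 3 and 0.47 without SCL-treated replicate 2, and in the same settings SCL-treated over normal diet was -0.35 and 0.25. Psmd5 had 22.9, 15.7 and 38.3 CPM in SCL-treated livers, 29.7, 15.8 and 20.9 CPM in high-fat diet livers and 29.4, 26.0 and 21.9 CPM in normal diet livers. Its lowest values, in SCL-treated replicate 2 and high-fat diet replicate 2, lie close together, and its log2 fold change for high-fat over normal diet was -0.22 (SE 0.36, edgeR adjusted p = 0.93). Psmd9 had 34.2, 18.8 and 20.8 CPM in SCL-treated livers, 17.4, 25.3 and 25.0 CPM in high-fat diet livers and 16.6, 22.6 and 30.4 CPM in normal diet livers, and the groups overlap throughout. Its log2 fold change for SCL-treated over normal diet was 0.087 (SE 0.33, edgeR adjusted p = 0.93).

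Promoter windows were read from RefSeq for GRCr8, covering 250 bases before to 50 after the gene's start, and 41 of the 45 genes had one. They were searched on both strands for TGACNNNGC, the core of the antioxidant response element bound by Nfe2l2 and its relatives, for the interferon-stimulated response element, GAAA and GAAA again after a pair of any bases, and for TTCNNNGAA, the gamma-activated site. TGACNNNGC was found in 8 of the 41 windows and in 12.1% of 33469 rat promoters. The interferon-stimulated response element was found in 7 of 41 and in 3.92% of all promoters. The 7 were those of Psma4, Psmb3, Psmb8, Psmb10, Psmd7, Psme2 and Psmg4. TTCNNNGAA was found in 4 of 41 and in 8.87% of all promoters. The 4 were those of Psmb8, Psmc6, Psmd3 and Psmd7. A match describes the letters in the window and is no evidence of binding. The 4 windows below belong to genes of the catalytic pairs and of PA28, and capitals mark the matches, TGACNNNGC in Psmb5, TTCNNNGAA and the interferon-stimulated response element on the other strand in Psmb8, and that element in Psmb10 and Psme2. All 4 are given 5′ to 3′ on the minus strand, at chr15:32047330-32047629 for Psmb5, chr20:4656982-4657281 for Psmb8, chr19:50743243-50743542 for Psmb10 and chr15:33052702-33053001 for Psme2.
Psmb5: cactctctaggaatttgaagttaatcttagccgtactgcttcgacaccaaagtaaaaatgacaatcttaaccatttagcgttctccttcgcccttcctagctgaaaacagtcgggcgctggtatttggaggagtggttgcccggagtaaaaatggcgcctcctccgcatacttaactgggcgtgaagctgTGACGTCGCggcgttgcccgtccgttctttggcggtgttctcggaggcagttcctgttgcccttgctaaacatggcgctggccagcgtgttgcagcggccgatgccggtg
Psmb8: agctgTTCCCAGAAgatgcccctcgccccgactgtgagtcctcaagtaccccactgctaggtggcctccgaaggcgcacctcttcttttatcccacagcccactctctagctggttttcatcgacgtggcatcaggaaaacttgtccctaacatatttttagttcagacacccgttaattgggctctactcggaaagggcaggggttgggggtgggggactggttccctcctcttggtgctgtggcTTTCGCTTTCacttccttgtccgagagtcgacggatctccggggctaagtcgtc
Psmb10: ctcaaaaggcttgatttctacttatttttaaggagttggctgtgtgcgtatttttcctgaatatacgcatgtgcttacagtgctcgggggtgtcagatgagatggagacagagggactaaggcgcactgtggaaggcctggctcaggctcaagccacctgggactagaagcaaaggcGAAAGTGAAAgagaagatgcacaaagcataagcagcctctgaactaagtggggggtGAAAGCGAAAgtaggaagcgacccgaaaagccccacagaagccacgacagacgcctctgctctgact
Psme2: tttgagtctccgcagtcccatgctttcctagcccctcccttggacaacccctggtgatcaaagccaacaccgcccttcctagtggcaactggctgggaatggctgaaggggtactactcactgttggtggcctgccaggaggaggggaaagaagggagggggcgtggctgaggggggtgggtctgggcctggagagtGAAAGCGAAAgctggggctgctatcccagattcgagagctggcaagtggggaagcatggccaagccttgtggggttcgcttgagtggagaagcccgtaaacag

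The catalytic sites were described as pairs, each an immunosubunit and the constitutive subunit whose place it takes. Psmb5, which carries the chymotrypsin-like site, had 104, 142 and 152 CPM in SCL-treated livers, 62.6, 122 and 106 CPM in high-fat diet livers and 65.6, 73.9 and 104 CPM in normal diet livers. SCL-treated replicates 2 and 3 lie above all other libraries, and the groups overlap through SCL-treated replicate 1. Psmb5 had a log2 fold change of 0.71 for SCL-treated over normal diet (SE 0.32, edgeR adjusted p = 0.66), 0.45 for SCL-treated over high-fat diet (SE 0.32, edgeR adjusted p = 1.00) and 0.25 for high-fat over normal diet (SE 0.32, edgeR adjusted p = 0.93). Its counterpart Psmb8 had 24.4, 15.4 and 35.1 CPM in SCL-treated livers, 30.5, 26.6 and 9.30 CPM in high-fat diet livers and 33.5, 31.2 and 26.9 CPM in normal diet livers. The 2 lowest values lie in the libraries over 40% mitochondrial, and the groups overlap. Psmb8 had a log2 fold change of -0.29 for SCL-treated over normal diet (SE 0.43, edgeR adjusted p = 0.82), 0.17 for SCL-treated over high-fat diet (SE 0.43, edgeR adjusted p = 1.00) and -0.46 for high-fat over normal diet (SE 0.43, edgeR adjusted p = 0.92).

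Per length, the FPKM of Psmb8 over that of Psmb5 was 0.0992, 0.0459 and 0.0978 in SCL-treated livers, 0.206, 0.0920 and 0.0372 in high-fat diet livers and 0.216, 0.178 and 0.109 in normal diet livers. All 3 SCL-treated ratios lie below all 3 normal diet ratios, and the high-fat diet group spans both. The Psmb8 transcript has 2066 bases and that of Psmb5 873. The highest ratios were those of normal diet replicates 1 and 2 and high-fat diet replicate 1. Over the 45 genes rho between length and deviation was 0.53, 0.40 and 0.45 there and negative in the other libraries. The lowest ratios were those of high-fat diet replicate 3 and SCL-treated replicate 2, with 44.1% and 49.0% mitochondrial reads. Whether the ratio follows length or the mitochondrial share was not tested. The difference of the mean log2 ratios was -1.08 for SCL-treated minus normal diet, with an exact two-sided permutation p of 0.1, the smallest that 3 against 3 allows, and 0.9 after adjustment over the 9 ratio tests. For high-fat minus normal diet it was -0.86 (exact permutation p = 0.3, adjusted p = 0.9), and for SCL-treated minus high-fat diet -0.22 (exact permutation p = 1, adjusted p = 1).

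**Figure D4:**
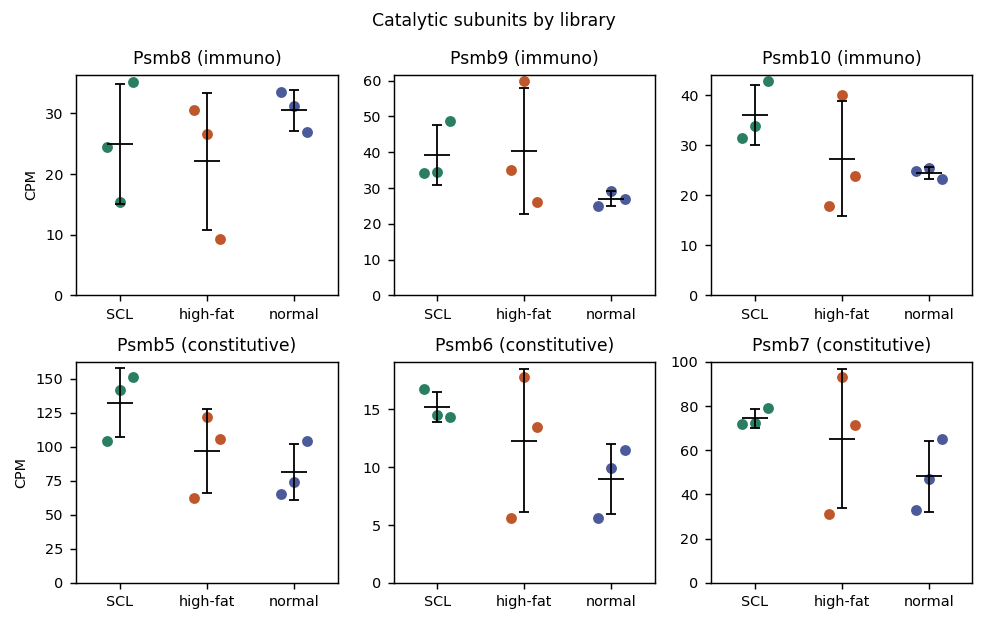
CPM of the immunosubunits (upper row) and of the constitutive subunits they replace (lower row), with 1 point for each library, a horizontal mark at the mean and bars of 1 SD (n = 3 a group). Psmb9 and Psmb10 lie wholly higher in SCL-treated than in normal diet livers, and high-fat diet values spread widely in most panels.

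Psmb6, which carries the caspase-like site, had 16.7, 14.6 and 14.4 CPM in SCL-treated livers, 5.65, 17.8 and 13.5 CPM in high-fat diet livers and 5.61, 9.91 and 11.5 CPM in normal diet livers. SCL-treated values all lie above normal diet values, with a log2 fold change of 0.76 (SE 0.42, edgeR adjusted p = 0.67). It was 0.31 for SCL-treated over high-fat diet (SE 0.42, edgeR adjusted p = 1.00) and 0.45 for high-fat over normal diet (SE 0.42, edgeR adjusted p = 0.92), and RefSeq names 3 near copies of Psmb6. Psmb9, its immunosubunit, had 34.2, 34.4 and 48.8 CPM in SCL-treated livers, 35.1, 59.8 and 26.1 CPM in high-fat diet livers and 25.0, 29.1 and 27.0 CPM in normal diet livers. SCL-treated livers lie wholly above normal diet livers here too. Psmb9 had a log2 fold change of 0.53 for SCL-treated over normal diet (SE 0.32, edgeR adjusted p = 0.67), -0.043 for SCL-treated over high-fat diet (SE 0.32, edgeR adjusted p = 1.00) and 0.58 for high-fat over normal diet (SE 0.32, edgeR adjusted p = 0.91). The FPKM ratio of Psmb9 to Psmb6 was 0.965, 1.12 and 1.60 in SCL-treated livers, 2.94, 1.58 and 0.913 in high-fat diet livers and 2.11, 1.39 and 1.11 in normal diet livers. All groups overlap, and the adjusted exact permutation p was 0.9 or 1 in the 3 comparisons.

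Psmb7, which carries the trypsin-like site, had 71.7, 72.3 and 79.3 CPM in SCL-treated livers, 30.9, 93.0 and 71.7 CPM in high-fat diet livers and 32.8, 47.0 and 65.0 CPM in normal diet livers. SCL-treated values are close together and all above normal diet values. Psmb7 had a log2 fold change of 0.62 for SCL-treated over normal diet (SE 0.39, edgeR adjusted p = 0.67), 0.19 for SCL-treated over high-fat diet (SE 0.39, edgeR adjusted p = 1.00) and 0.43 for high-fat over normal diet (SE 0.39, edgeR adjusted p = 0.92). Psmb10, its immunosubunit, had 31.5, 34.0 and 42.8 CPM in SCL-treated livers, 17.8, 40.1 and 24.0 CPM in high-fat diet livers and 24.9, 25.5 and 23.2 CPM in normal diet livers. The SCL-treated group again lies wholly above the normal diet group, whose values are nearly equal. Psmb10 had a log2 fold change of 0.56 for SCL-treated over normal diet (SE 0.31, edgeR adjusted p = 0.67), 0.40 for SCL-treated over high-fat diet (SE 0.31, edgeR adjusted p = 1.00) and 0.15 for high-fat over normal diet (SE 0.31, edgeR adjusted p = 0.94). The FPKM ratio of Psmb10 to Psmb7 was 0.748, 0.800 and 0.919 in SCL-treated livers, 0.981, 0.734 and 0.570 in high-fat diet livers and 1.29, 0.924 and 0.608 in normal diet livers, with all groups overlapping and adjusted exact permutation p-values of 0.9.

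Among the activators, Psme2 had the largest fold change of the 45 genes for high-fat over normal diet and the widest error. Psme2, the beta subunit of PA28 and an interferon-induced gene, had 6.53, 10.9 and 8.77 CPM in SCL-treated livers, 2.09, 11.5 and 22.6 CPM in high-fat diet livers and 2.38, 5.65 and 5.35 CPM in normal diet livers. High-fat diet livers hold the lowest and the highest value, and SCL-treated livers lie wholly above normal diet livers. Its fold change on the log2 scale was 1.43 for high-fat over normal diet (SE 0.67, edgeR adjusted p = 0.91), -0.46 for SCL-treated over high-fat diet (SE 0.66, edgeR adjusted p = 1.00) and 0.97 for SCL-treated over normal diet (SE 0.67, edgeR adjusted p = 0.67). The highest value is that of high-fat diet replicate 3, with 44.1% mitochondrial reads, and without that library the log2 fold change for high-fat over normal diet was 0.59. RefSeq names 3 near copies of Psme2. Psme3 and Psme4, which encode PA28 gamma and PA200, had log2 fold changes between -0.19 and 0.16 in the 3 comparisons.

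Psmf1, which encodes the inhibitor PI31, had 62.1, 36.1 and 59.1 CPM in SCL-treated livers, 52.7, 77.9 and 69.8 CPM in high-fat diet livers and 51.4, 42.9 and 65.6 CPM in normal diet livers. High-fat diet replicates 2 and 3 are the highest, and all groups overlap. Psmf1 had a log2 fold change of 0.33 for high-fat over normal diet (SE 0.30, edgeR adjusted p = 0.92), -0.35 for SCL-treated over high-fat diet (SE 0.30, edgeR adjusted p = 1.00) and -0.023 for SCL-treated over normal diet (SE 0.30, edgeR adjusted p = 0.98). Of the 2 genes kept apart from the 45, Psmc3ip had 0.993 to 4.32 CPM over the 9 libraries. Psme1-ps1 had 48.6, 25.4 and 74.5 CPM in SCL-treated livers, 34.9, 38.2 and 20.1 CPM in high-fat diet livers and 29.1, 43.0 and 37.9 CPM in normal diet livers, and its log2 fold changes had adjusted p-values of 0.71 or more in edgeR. Whether these reads come from Psme1 was not tested.

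**Figure D5:**
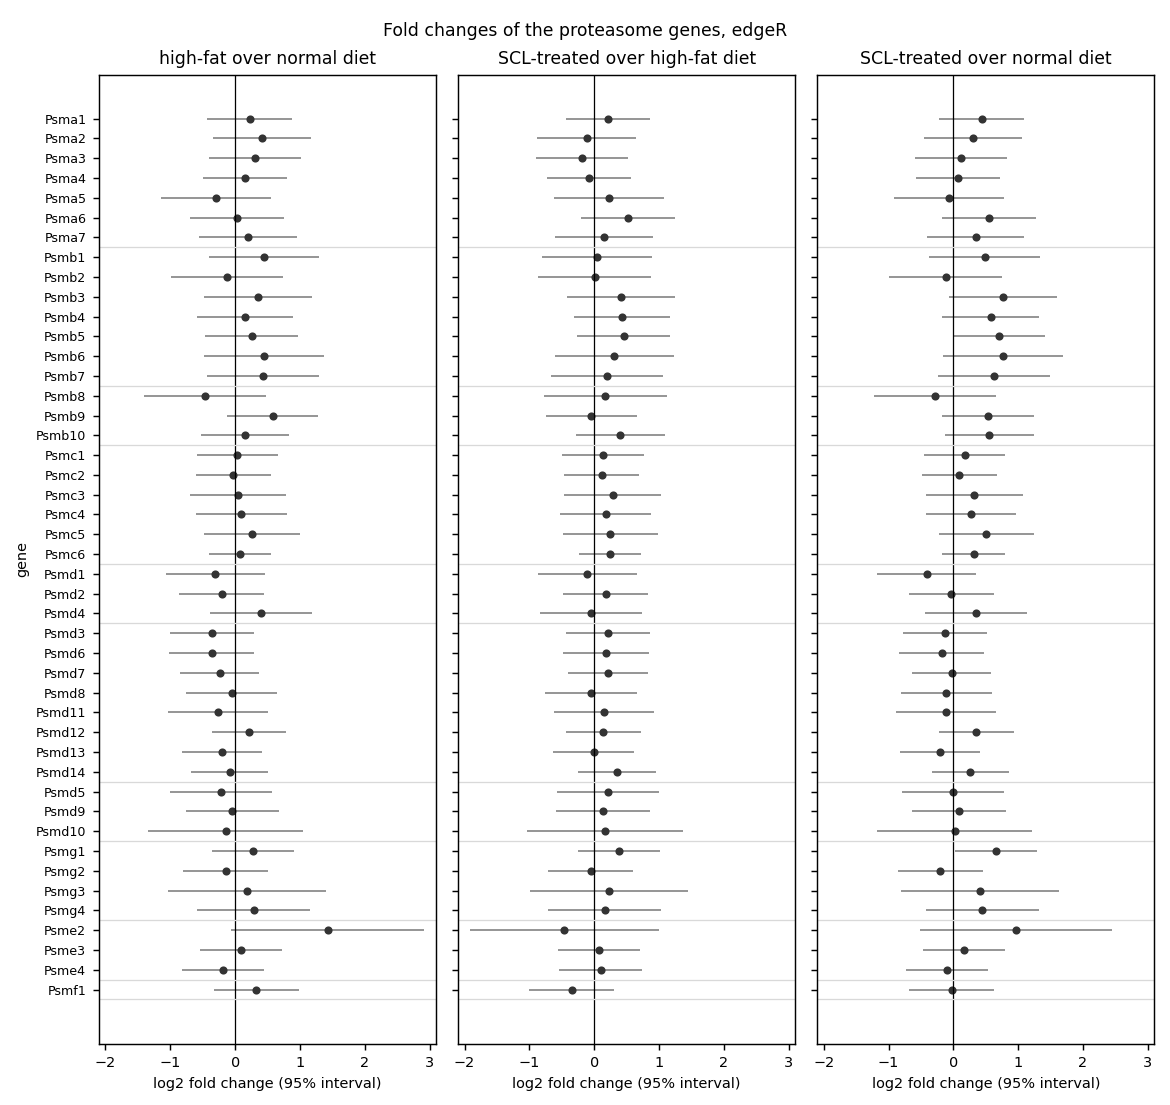
Log2 fold changes of the 45 proteasome genes in 3 comparisons from the edgeR fit, with 95% intervals, in class order from the alpha ring at the top to the inhibitor at the bottom. All intervals but that of Psmg1 in SCL-treated over normal diet include 0, and that of Psme2 is the widest.

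Among other genes of the pathway and among the cell type markers none passed the edgeR test either. Over 11 lists with 82 tested genes edgeR called 0 in each comparison, with 4 at an unadjusted p under 0.05 for high-fat over normal diet, 1 for SCL-treated over high-fat diet and 6 for SCL-treated over normal diet. Of all genes 4.32%, 1.95% and 6.88% had such an edgeR p in these comparisons. DESeq2 called 0, 0 and 1 in the same order, and limma-voom 0, 0 and 3, the genes called being Nfe2l2 by both and Nkg7 and Cd163 by limma-voom. Of all genes DESeq2 called 0.415%, 0.0083% and 0.332%, and limma-voom 0.216%, 0.0% and 1.26%. Of partners that the name rule does not catch, 8 were tested, with 0 called in any comparison and 7 of 8 above 0 in each. Of all genes 52.8%, 46.7% and 51.8% were above 0 in the same order, and the comparisons share libraries. Usp14, a deubiquitinase bound to the base, had a log2 fold change of 0.50 for SCL-treated over normal diet (SE 0.24, edgeR adjusted p = 0.66) and 0.40 for SCL-treated over high-fat diet (SE 0.24, edgeR adjusted p = 1.00). Adrm1, a ubiquitin receptor of the base, had 102, 93.2 and 106 CPM in SCL-treated livers, 63.2, 100.7 and 85.6 CPM in high-fat diet livers and 71.8, 71.9 and 87.2 CPM in normal diet livers. SCL-treated livers lie wholly above normal diet livers for it, with a log2 fold change of 0.38 (SE 0.26, edgeR adjusted p = 0.67). For high-fat over normal diet the lowest p-values of these partners were those of Fbxo7, with -0.57 (SE 0.37), and Sem1, with 0.33 (SE 0.48), both at an edgeR adjusted p of 0.91 or more. Pomp, the core maturation factor, had 22 reads in all and was not tested.

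Nfe2l2, the oxidative stress factor, had the lowest p of the other pathway genes. It had 145, 157 and 193 CPM in SCL-treated livers, 124, 88.2 and 158 CPM in high-fat diet livers and 73.4, 55.5 and 75.5 CPM in normal diet livers. Normal diet livers lie wholly below both other groups. Nfe2l2 had a log2 fold change of 1.28 for SCL-treated over normal diet (SE 0.29, edgeR adjusted p = 0.65) and 0.85 for high-fat over normal diet (SE 0.29, edgeR adjusted p = 0.91), and 0.42 for SCL-treated over high-fat diet (SE 0.29, edgeR adjusted p = 1.00). For SCL-treated over normal diet the adjusted p of Nfe2l2 was 0.013 with DESeq2 and 0.026 with limma-voom, and 0.32 to 0.99 under the other alternatives. The 8 members with TGACNNNGC in their window, Psma3, Psmb2, Psmb5, Psmb6, Psmd1, Psmd3, Psmd9 and Psme4, had log2 fold changes in that comparison between -0.41 for Psmd1 and 0.76 for Psmb6. Over all 45 genes the range there was -0.41 to 0.97.

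Nfe2l1, which is known to drive subunit transcription when the proteasome is inhibited, had 18.6, 10.3 and 21.1 CPM in SCL-treated livers, 51.5, 6.44 and 11.1 CPM in high-fat diet livers and 47.2, 43.2 and 24.6 CPM in normal diet livers. SCL-treated livers lie wholly below normal diet livers. Nfe2l1 had a log2 fold change of -1.20 for SCL-treated over normal diet (SE 0.65, edgeR adjusted p = 0.66), -0.47 for SCL-treated over high-fat diet (SE 0.65, edgeR adjusted p = 1.00) and -0.73 for high-fat over normal diet (SE 0.65, edgeR adjusted p = 0.92). The 3 libraries with the lowest core sums, high-fat diet replicate 1 and normal diet replicates 1 and 2, had the 3 highest Nfe2l1 values. Of the 5 genes for transcription and its processing 0 were called in each comparison, and Ddi2, a protease that activates the Nfe2l1 protein, had -0.28 for SCL-treated over high-fat diet (SE 0.29, edgeR adjusted p = 1.00).

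Of 8 shuttle and segregase genes, which carry ubiquitin-tagged proteins to the proteasome, and of 8 genes for ubiquitin and its enzymes, 0 were called in any comparison by edgeR, and 0 had an unadjusted p under 0.05. Ubqln2, a shuttle protein gene, had log2 fold changes of 0.59 for SCL-treated over high-fat diet (SE 0.28, edgeR adjusted p = 1.00) and -0.37 for high-fat over normal diet (SE 0.28, edgeR adjusted p = 0.91). Nploc4, a cofactor of the segregase Vcp, had -0.54 for SCL-treated over normal diet (SE 0.30, edgeR adjusted p = 0.66). Rps27a, a gene for a ubiquitin fused to a ribosomal protein, had 0.91 for SCL-treated over normal diet (SE 0.49, edgeR adjusted p = 0.66).

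Genes of the interferon gamma response and of class I presentation, with which the immunosubunits are known to be induced, gave 0 calls of 18 in each comparison. Their medians were 0.058 for high-fat over normal diet, 0.039 for SCL-treated over high-fat diet and -0.080 for SCL-treated over normal diet. Tap1, a peptide transporter gene beside Psmb9 in the class II region, had 37.2, 22.0 and 32.4 CPM in SCL-treated livers, 35.5, 39.0 and 28.1 CPM in high-fat diet livers and 32.8, 32.4 and 31.4 CPM in normal diet livers. All groups overlap. Cxcl9, an interferon-induced chemokine, had the lowest p of the list in 2 comparisons, with a log2 fold change of 1.04 for high-fat over normal diet (SE 0.41, edgeR adjusted p = 0.91) and 1.02 for SCL-treated over normal diet (SE 0.41, edgeR adjusted p = 0.66). Nlrc5, the activator of class I genes, had -0.92 for SCL-treated over high-fat diet (SE 0.41, edgeR adjusted p = 1.00).

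Leukocytes express immunosubunits, and markers of several cell types varied beside them. Ptprc, a surface protein of all leukocytes, had 22.0, 24.7 and 12.7 CPM in SCL-treated livers, 16.5, 18.1 and 25.8 CPM in high-fat diet livers and 12.9, 13.4 and 13.4 CPM in normal diet livers. The 4 pan-leukocyte markers summed to 95.3 to 163 CPM in SCL-treated livers, 69.1 to 146 CPM in high-fat diet livers and 68.4 to 98.7 CPM in normal diet livers. T and NK cell markers summed to 23.7 to 34.9, 12.3 to 33.5 and 10.3 to 21.5 CPM in SCL-treated, high-fat diet and normal diet livers, and all 7 that were tested had a log2 fold change above 0 for both high-fat over normal diet and SCL-treated over normal diet. B and plasma cell markers summed to 16.1 to 39.8, 8.99 to 25.9 and 5.01 to 15.6 CPM, and neutrophil markers to 6.84 to 12.4, 1.20 to 30.8 and 4.75 to 8.06 CPM, in the same order of groups. The 10 Kupffer cell and macrophage markers summed to 253 to 707 CPM in SCL-treated livers, 271 to 597 CPM in high-fat diet livers and 550.3 to 733 CPM in normal diet livers. Of the 10, 0 had a log2 fold change above 0 for high-fat over normal diet or SCL-treated over normal diet. Over all genes 52.8% and 51.8% were above 0 in these comparisons, which share the normal diet libraries. The 6 hepatocyte markers summed to 69515 to 223720, 70587 to 143420 and 145736 to 183341 CPM in SCL-treated, high-fat diet and normal diet livers. The part of these cell types in the immunosubunit values was not tested. In whole liver, fewer cells of a type and less RNA per cell cannot be told apart.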

How the data were processed

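RNA of rat liver was extracted with Trizol reagent, and a NEBNext Ultra kit was used for the libraries, per the labels. Of the 2 deposited tables, one pairs the high-fat diet with the normal diet group and the other the SCL-treated with the high-fat diet group. Per the file headers, a gene has raw counts, a normalized signal (not used here) and FPKM in every library, besides a log2 fold change, a p-value and an adjusted p-value by the authors. The deposited FPKM values are scaled to all counted reads of a library. The submitters' processing notes list DESeq2 (version not given) and mm9, a mouse build. Aligner, counter and use of strand were not stated in these sources, and overlapping genes are uncertain. Counts of the high-fat diet libraries were equal in both tables for every shared gene, and 0 columns of values went unmapped.

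Counts of all 9 libraries were fitted with edgeR 4.0.16 in R 4.3.3 (filterByExpr minimum count 10, TMM scaling, group as the only term, 6 residual degrees of freedom). The quasi-likelihood test was adjusted by the Benjamini-Hochberg method over 12041 genes and called under 0.05. The SE was obtained by dividing the size of the log2 fold change by the root of F. CPM uses TMM-scaled library sizes. Fold changes run high-fat over normal diet, SCL-treated over high-fat diet and SCL-treated over normal diet. DESeq2 1.42.0 and limma 3.58.1 (voom with quality weights) were run as alternatives. Where the mitochondrial share was a covariate, its log2 was used. FPKM ratios of the 3 catalytic pairs were compared by exact two-sided permutation tests adjusted over 9 tests. The count fit was tested on simulated data.

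Named in full are the catalytic pairs, Psme2 and, in each class, the gene of smallest p per comparison and of highest mean FPKM. Of the pathway lists the 2 smallest p per comparison were taken, and cell type markers are given mainly as sums. Some genes of these lists that enter the counts are not reported here. Psma1, Psma5, Psmb2, Psmd3 and the 2 name matches were added after their values were seen. Members, classes and lists were chosen with earlier results of these data known. A depth of 12413774 to 15521648 reads leaves low genes such as Psmd10 imprecise.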

Additional observations from a re-analysis of the deposited data

How the results depend on the processing

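The count of proteasome genes called was 0 in all 3 comparisons under every alternative run, and the median log2 fold change of the 45 lay between -0.079 and 0.21 for high-fat over normal diet, 0.022 and 0.32 for SCL-treated over high-fat diet and 0.037 and 0.36 for SCL-treated over normal diet when 1 library at a time was left out. Scaling by library totals alone moved the median of all genes to -0.19 for SCL-treated over high-fat diet and -0.21 for SCL-treated over normal diet, and put that of the 45 at -0.0095, 0.016 and 0.047 for high-fat over normal diet, SCL-treated over high-fat diet and SCL-treated over normal diet. Limma-voom put it at 0.31, 0.16 and 0.37. Libraries with the same number did not deviate together in every pair (correlations -0.35 to 0.60). The fit with the replicate block called 0 genes of the 45, with medians of 0.070, 0.16 and 0.25, and moved Psmb9 for SCL-treated over high-fat diet to 0.0064.

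Single genes changed sign under some alternatives, and the cause was not tested. With library totals alone Psmb8 was -0.042 and Psmd2 -0.027 for SCL-treated over high-fat diet, and Psmd9 -0.10 for SCL-treated over normal diet. With the mitochondrial share as a covariate Psmb5 was -0.019, Psmb8 0.0062 and Psmd5 0.17 for high-fat over normal diet, and Psmb8 0.20, Psmd9 -0.011 and Tap1 0.10 for SCL-treated over normal diet. Without the 2 libraries over 40% mitochondrial Psme2 was 0.18 for SCL-treated over high-fat diet, and Psmf1 0.18 and Tap1 0.10 for SCL-treated over normal diet. With limma-voom Psmb7 was -0.029, Nfe2l1 0.87 and Ubqln1 0.090 for SCL-treated over high-fat diet, and Psmf1 0.30 and Tap1 0.069 for SCL-treated over normal diet. With the length trend removed Psmb10 was -0.015 for high-fat over normal diet, Ubr4 0.011 for SCL-treated over high-fat diet, and Psmd9 -0.043 and Tap1 0.090 for SCL-treated over normal diet.

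Leaving out 1 library at a time gave, for high-fat over normal diet, -0.25 to 0.38 for Psmb10, -0.093 to 0.67 for Sem1, -0.027 to 0.20 for Tap1 and -0.30 to 0.54 for the log2 ratio of Psmb9 to Psmb6. For SCL-treated over high-fat diet it gave -0.034 to 0.69 for Psmb6, -0.14 to 0.55 for Psmb7, -0.20 to 0.48 for Psmb8, -0.28 to 0.35 for Psmb9, -0.080 to 0.40 for Psmd2, -0.20 to 0.49 for Psmd5, -0.96 to 0.37 for Psme2, -0.92 to 0.94 for Nfe2l1, -0.33 to 0.028 for Tap1, -0.38 to 0.030 for Ubqln1, -0.85 to 0.38 for the log2 ratio of Psmb8 to Psmb5 and -0.051 to 0.34 for that of Psmb10 to Psmb7. For SCL-treated over normal diet it gave -0.24 to 0.33 for Psmd9, -0.17 to 0.18 for Psmf1, -0.25 to 0.11 for Tap1 and -0.41 to 0.13 for the log2 ratio of Psmb10 to Psmb7. With 3 libraries a group the median SE of the 45 was 0.32 on the log2 scale, and log2 fold changes as large as 1.43 for Psme2 and 1.28 for Nfe2l2 did not pass the edgeR test.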
